A study of Mus musculus with 11 samples.

Results

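Mpo, Elane, Prtn3 and Ctsg were taken by name, as 4 of the 49993 genes in the RefSeq table of GRCm38.p6, because they encode the main enzymes of the primary (azurophil) granules of neutrophils. Myeloperoxidase, the product of Mpo, is a heme enzyme that makes hypochlorous acid from hydrogen peroxide and chloride. Elane, Prtn3 and Ctsg encode the serine proteases neutrophil elastase, proteinase 3 and cathepsin G, which digest engulfed microbes. These genes are transcribed early in neutrophil development, from the granulocyte-macrophage progenitor to the promyelocyte, and PU.1, C/EBP factors, RUNX1 and MYB are known to bind their control regions. DNA methylation of CpG sites in and around genes of a lineage is often lost as progenitors enter that lineage. Dnmt3a encodes a methyltransferase that can methylate previously unmethylated CpG sites, so the comparison asks whether the loss of methylation at these genes between stem-cell-rich and granulocyte-macrophage progenitor cells differs in its absence.

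DNA methylation was measured by enhanced reduced representation bisulfite sequencing in bone marrow cells of C57BL/6 mice aged 12 months. All animals carried a floxed Dnmt3a gene (Dnmt3a f/f) and, per the labels, the treatment was 5 injections of poly(I:C), which switches on the Mx1 promoter. Knockout animals also carried Mx1-Cre, which acts in blood cells and in other interferon-responsive tissues such as liver, and control animals did not. The stem-cell-rich fraction, sorted as Lin- Sca1+ cKit+ and called LSK, was measured in 3 control libraries (1326, 1330 and 1331) and 3 knockout libraries (1327, 1333 and 1334). Granulocyte-macrophage progenitors, sorted as Lin- Sca1- cKit+ CD34+ FcgR+ and called GMP, were measured in 2 control libraries (346 and 349) and 2 knockout libraries (178 and 179). A further GMP library, 352, had labels that disagree on its genotype, and its values are given apart.

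Facts of the libraries bear on every value below. Summed coverage was 157.4 to 181.1 M reads in LSK and 95.4 to 109.7 M in GMP, so cell type and depth cannot be told apart, and the numbering of LSK and GMP libraries also differs. C positions of Dnmt3a were selected that all 5 control libraries listed and none of the 3 knockout LSK libraries did. They were 5 positions in a segment of chromosome 12 (3903653 to 3904031, GRCm38), and their absence from knockout LSK follows from the selection. The knockout GMP libraries still listed 4 (178) and 5 (179) of them, with summed coverages of 104 and 215 against 306 and 445 in the control GMP libraries. The part of these remaining reads in the knockout GMP results was not tested. Mean levels over the 1293035 C positions common to the 10 assigned libraries were 32.7% to 33.1% in control and 31.9% to 32.2% in knockout libraries. Every knockout library thus lay below every control library over all common positions. Knockout LSK library 1333 alone listed 118988 positions found in no other library, against 6313 to 35250 in the others. No RNA was measured, so the sorted cell types could be checked only through methylation. Among marker genes, the windows of 5 of 6 lymphoid, 5 of 5 erythroid and megakaryocyte, 2 of 5 mast cell, basophil and eosinophil, 2 of 4 monocyte and dendritic and 5 of 5 stem cell genes were measured, and 0 of these passed the test between GMP and LSK in either genotype. The background was 0.618% of all windows lower and 0.496% higher in control cells, and 0.804% and 1.99% in knockout cells, so this count is near the background.

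C positions were taken from 5 kb before to 5 kb after each gene, where a position is a cytosine of a CpG on 1 strand with at least 10 reads. The 4 windows held 120 such positions in at least 1 library and 76 in all 10 assigned libraries. These 76 lie in 66 CpG sites, since 10 pairs are the 2 strands of 1 site, and positions of the same MspI fragment also share reads. Mpo (chromosome 11, 87793784 to 87804412, plus strand) had 22 of the 76, of which 20 lie inside the gene and 2 upstream, in a stretch that the lncRNA gene Gm34064 overlaps. Prtn3 (chromosome 10, 79879667 to 79883174) and Elane (79886312 to 79888216) are neighbours on the plus strand and their windows overlap. Together they had 49 positions, of which 20 lie in Prtn3, 2 between the genes, 1 in Elane, 10 in the pseudogene Gm19810 downstream of Elane and 16 in the next gene, Cfd, which encodes complement factor D. Ctsg (chromosome 14, 56099885 to 56102574, minus strand) had 5, all inside the gene. The sources used here give no exons, so positions are described by their distance from the transcription start.

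None of the 120 positions lies in a promoter, taken as 250 bases before to 50 after the start. The nearest common positions are 452 bp before the start of Mpo, 679 bp after that of Elane, 1784 bp after that of Ctsg and 2084 bp after that of Prtn3. The promoters of Mpo and Ctsg, the genes where the largest differences were found, are shown to make clear what the assay left unmeasured. MspI cuts at CCGG, which occurs in neither promoter, occurs once each in those of Elane and Prtn3, and is present in 52.8% of the 32851 mouse promoters of the table. The 250 bases before each start are given 5′ to 3′ on the gene's strand from RefSeq (GRCm38.p6), with CG dinucleotides and the PU.1 core GAGGAA (or its complement TTCCTC) in capitals. Their coordinates are chr11:87793534-87793783 for Mpo and chr14:56102575-56102824 for Ctsg.
Mpo: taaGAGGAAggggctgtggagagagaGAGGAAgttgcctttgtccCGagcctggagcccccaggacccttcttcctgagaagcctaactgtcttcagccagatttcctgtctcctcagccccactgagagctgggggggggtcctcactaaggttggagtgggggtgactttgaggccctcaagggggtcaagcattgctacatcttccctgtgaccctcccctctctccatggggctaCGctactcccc
Ctsg: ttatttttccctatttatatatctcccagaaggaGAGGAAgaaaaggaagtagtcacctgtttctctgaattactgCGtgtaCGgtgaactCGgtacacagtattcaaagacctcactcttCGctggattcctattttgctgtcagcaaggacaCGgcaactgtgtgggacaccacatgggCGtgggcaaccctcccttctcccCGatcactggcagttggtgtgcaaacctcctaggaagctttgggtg

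The 250 bases shown hold 2 CG dinucleotides in Mpo and 7 in Ctsg, against 3 in Elane and 4 in Prtn3. GAGGAA was found on either strand in all 4 promoters, 2 times in Mpo and once in each of the others, and in 28.3% of all promoters. The C/EBP pattern TTNNGNAA was found in none of the 4 and in 40.7% of all. The RUNX core TGTGGT was found once, in Ctsg, and in 16.8% of all. The MYB core AACNG was found 1 to 3 times in each of the 4 and in 80.3% of all. These matches describe letters only.

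Mpo lost methylation inside the gene between LSK and GMP in both genotypes. The first of its 2 tiles (fixed 1000-bp intervals with at least 3 common positions) held 9 positions from 6104 to 6215 bp after the start (chromosome 11, 87799001 to 87800000). Levels there were 91.5%, 88.6% and 93.2% in the control LSK libraries and 89.1%, 87.2% and 92.5% in the knockout LSK libraries. They were 51.4% and 47.1% in the control GMP libraries and 69.6% and 54.4% in the knockout GMP libraries. Every GMP library lay below every LSK library, and both knockout GMP libraries lay above both control GMP libraries. The GMP minus LSK difference was -41.8 percentage points (SE 2.51, n = 3 and 2) in control cells, with an adjusted p of 0.000118 in the limma-moderated logistic test, and -27.6 points (SE 7.76, n = 3 and 2) in knockout cells, with an adjusted p of 0.00272. Without library 179 the knockout difference was -20.0 points and no longer passed (adjusted p = 0.241, limma-moderated), the single remaining library being assumed to vary like the other groups.

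The other Mpo tile held 7 positions from 7258 to 7950 bp after the start (87801001 to 87802000). LSK libraries read 95.8%, 96.0% and 93.9% in control and 95.4%, 92.3% and 94.6% in knockout cells. GMP libraries read 64.2% and 61.5% in control and 58.1% and 54.6% in knockout cells. Here both knockout GMP libraries were the lower pair, opposite to the tile before it. The difference was -32.4 points (SE 1.49) in control cells and -37.7 points (SE 2.0) in knockout cells, with limma-moderated adjusted p-values of 8.02e-05 and 3.15e-05. Each level is an average over the sorted cells, so a share of cells without methylation and a lower level in every cell cannot be told apart.

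Within this second tile the loss was uneven. At 87801214, 7430 bp after the start, levels were 92.9%, 95.7% and 88.9% in control LSK, 97.0%, 92.9% and 91.8% in knockout LSK, 28.0% and 20.6% in control GMP and 14.5% and 22.8% in knockout GMP. This was the largest loss of all 76 positions in both genotypes, -68.2 points in control and -75.3 points in knockout cells. At its neighbour 87801196 (+7412) the differences were -55.1 points in control and -65.2 points in knockout cells, and both positions passed the test in both genotypes. By contrast, the positions at +7886, +7944 and +7950 kept group means of 81.2% to 94.4% in GMP of either genotype.

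**Figure D1:**
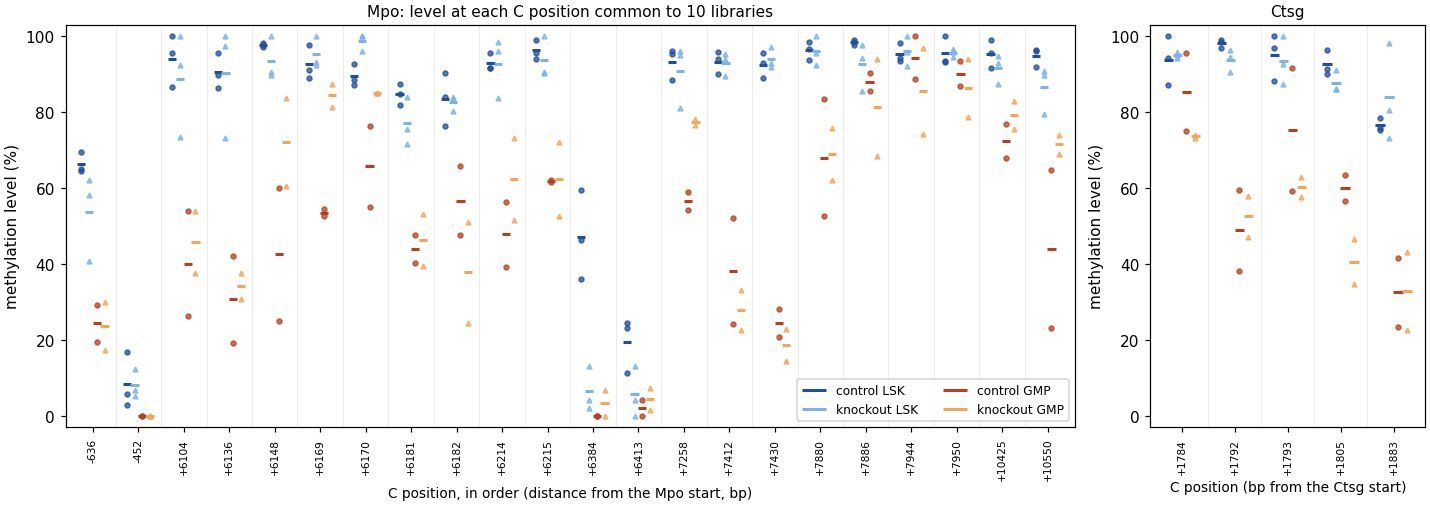
Methylation level (percent of reads) at each C position common to the 10 assigned libraries in Mpo (22 positions, left) and Ctsg (5 positions, right), in order and labelled by distance from the gene's start. Points are libraries (circles control, triangles knockout), short lines are group means, and GMP group means (orange shades) lie below LSK group means of the same genotype (blue shades) at all 22 Mpo and all 5 Ctsg positions.

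Ctsg showed a like loss in its single tile, 5 positions from 1784 to 1883 bp after the start (chromosome 14, 56100001 to 56101000). LSK levels were 91.5%, 89.8% and 89.9% in control and 90.8%, 91.0% and 86.9% in knockout libraries. GMP levels were 48.2% and 56.0% in control and 49.6% and 44.4% in knockout libraries. No GMP library came near an LSK library, and the GMP libraries of the 2 genotypes overlapped. The loss was -38.3 points (SE 3.92, n = 3 and 2) in control cells and -42.6 points (SE 2.91, n = 3 and 2) in knockout cells, with limma-moderated adjusted p-values of 4.96e-05 and 5.06e-05. Of the 5 positions, 3 passed the test in both genotypes. The largest difference among them was -49.4 points in control cells, at 56100782, and -51.1 points in knockout cells, at 56100691.

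Prtn3 carried little methylation in any group. Its 2 tiles, 10 positions from 2084 to 2302 bp and 10 from 2396 to 2967 bp after the start (chromosome 10, 79881001 to 79883000), had control LSK means of 2.46% ± 0.566 and 9.91% ± 2.82 (SD, n = 3). Control GMP means were 2.27% ± 0.523 and 6.55% ± 1.51 (SD, n = 2), and knockout GMP means were 1.06% ± 0.381 and 2.91% ± 0.816 (SD, n = 2). Knockout LSK means were 7.36% ± 7.75 and 9.65% ± 6.48 (SD, n = 3). Knockout LSK library 1333 stood apart in both tiles, at 15.8% against 0.682% and 5.54% in the other knockout LSK libraries in the first, and at 17.1% against 6.54% and 5.32% in the second. Neither tile passed the test in any of the 5 comparisons, and from levels this low a loss of 20 points was not possible in any library. Over the whole Prtn3 window the knockout minus control difference in LSK was 1.11 points with library 1333 and -2.67 points without it, in neither case past the test (limma-moderated adjusted p = 0.964 and 0.450).

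Within Prtn3, 2 positions carried more methylation than the rest. At 79881969, 2302 bp after the start, group means were 12.4% in control LSK, 38.2% in knockout LSK, 16.3% in control GMP and 7.83% in knockout GMP, and the knockout LSK libraries read 5%, 69.3% (1333) and 40.2% (1334). At 79882609, 2942 bp after the start, the means were 56.8%, 42.1%, 35.9% and 15.4% in the same order. Neither position passed the test in any comparison.

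In the tile between Prtn3 and Elane (79883001 to 79884000), 2 positions lie at -3068 and -2920 bp from the Elane start. Control LSK libraries read 32.3%, 40.7% and 42.1%, and control GMP libraries 18.4% and 7.91%. Knockout LSK libraries, at 11.2%, 16.4% and 11.6%, and knockout GMP libraries, at 4.41% and 14.7%, lay in the range of the control GMP libraries or just below it. The 3 control LSK libraries were thus the only high ones.

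Elane itself had 1 common position, 679 bp after its start, so its own methylation is thinly covered. That position read 100%, 90% and 82.6% in control LSK, 88.5%, 100% and 100% in knockout LSK, 54.5% and 84.8% in control GMP and 58.5% and 60.4% in knockout GMP. The 2 tiles downstream of Elane had group means above those of Prtn3 in every group. In the Gm19810 tile (79888001 to 79889000) control LSK libraries averaged 94.4% ± 1.73 (SD, n = 3) and control GMP libraries 85.9% ± 1.36 (SD, n = 2), a difference of -8.51 points with a limma-moderated adjusted p of 0.0917. Position 79888817 in that tile, 2505 bp after the Elane start, read 39.1% and 76.4% in control GMP and 84.7% and 36.9% in knockout GMP, against 78.8% to 88.8% in LSK, and did not pass the test in any comparison. In the Cfd tile (79892001 to 79893000) the 4 group means lay between 89.1% and 91.3%. Neither tile passed the test in any comparison.

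**Figure D2:**
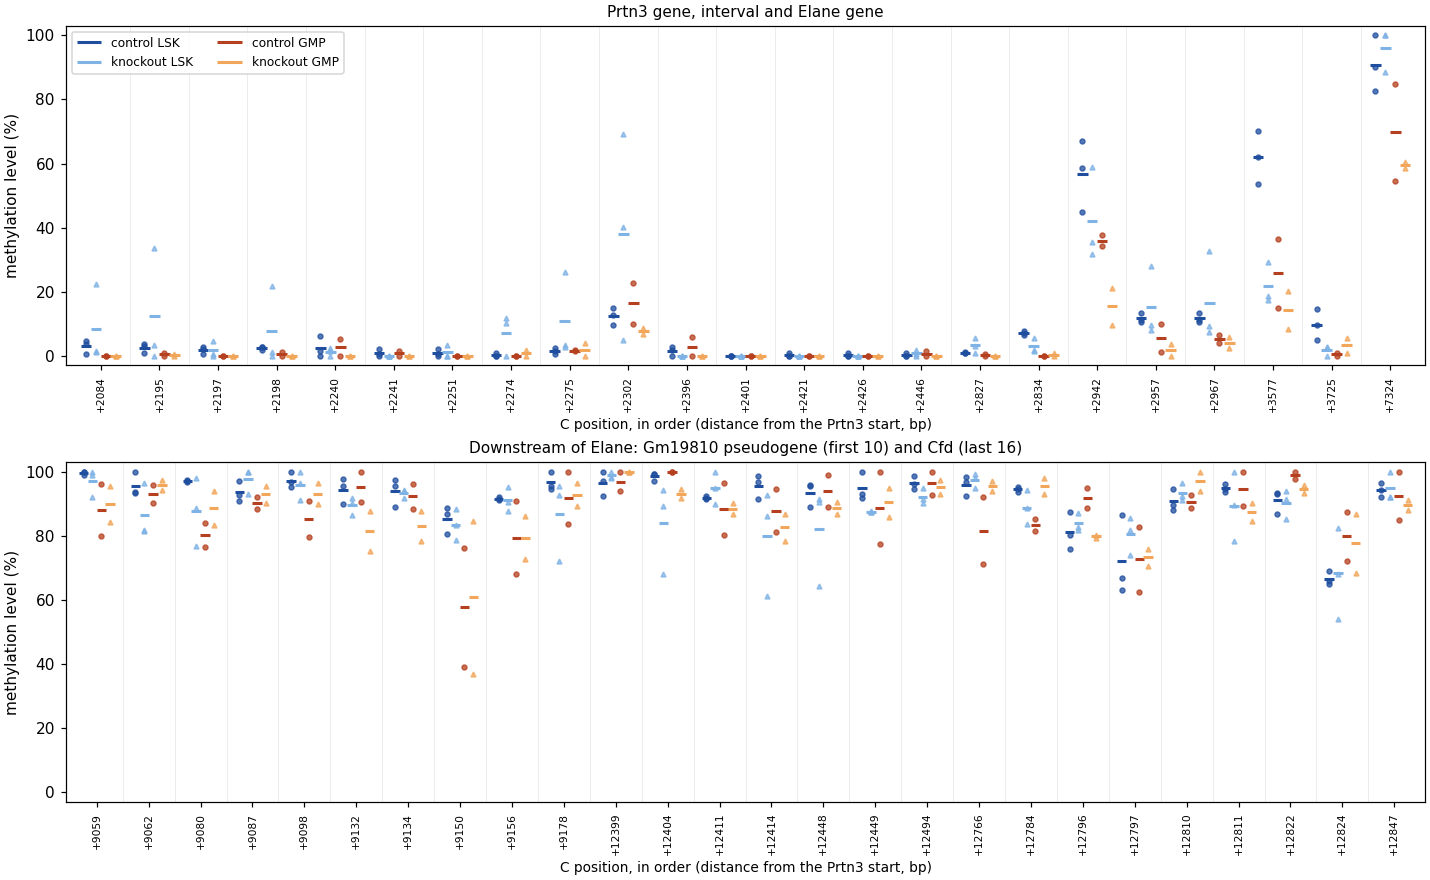
Methylation level (percent of reads) at the 49 C positions of the Prtn3 and Elane windows common to the 10 assigned libraries, in order and labelled by distance from the Prtn3 start (upper panel, Prtn3 to Elane; lower panel, downstream of Elane). Points are libraries and short lines group means: most Prtn3 positions lie near 0%, the position between the genes at +3577 is high in the 3 control LSK libraries alone, and of the positions downstream of Elane, the one at +9150 has GMP group means of 57.7% and 60.8%, against LSK group means of 85.4% and 83.5%.

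Counted over the 7 tiles of the 4 genes, 3 passed the test as lower in control GMP than in control LSK, the 2 Mpo tiles and the Ctsg tile, against a background of 0.799% of 100150 tiles. The same 3 tiles passed in knockout cells, against a background of 0.655%, and none passed as higher in GMP, against 0.0859% and 0.22%. The median GMP minus LSK difference over all tiles was -0.07 points in control and -0.08 points in knockout cells. Over the whole windows, Mpo went from 88.8% ± 0.848 to 47.3% ± 0.302 in control cells (SD, n = 3 and 2) and from 83.2% ± 2.33 to 52.3% ± 6.49 in knockout cells. Windows called lower made up 0.618% of 27998 windows in control and 0.804% in knockout cells, and the Mpo and Ctsg windows were among them in both. The Elane and Prtn3 windows did not pass, with differences of -5.25 and -2.26 points in control and -8.17 and -5.48 points in knockout cells. The Elane window pools parts as unlike as Prtn3 (5.77% in control LSK) and Cfd (91.3%), so its value also depends on the coverage of each part. Knockout minus control of its 2 differences was -2.92 points, and 0.16 points with an unweighted mean over positions. The knockout value of Prtn3 was -1.70 points without library 1333, and the control value of Elane ran from -7.81 points without 349 to -2.70 points without 346. Without library 179 the knockout values of the Mpo and Ctsg windows were -26.3 and -40.0 points and no longer passed (limma-moderated adjusted p = 0.0686 and 0.0516).

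**Figure D3:**
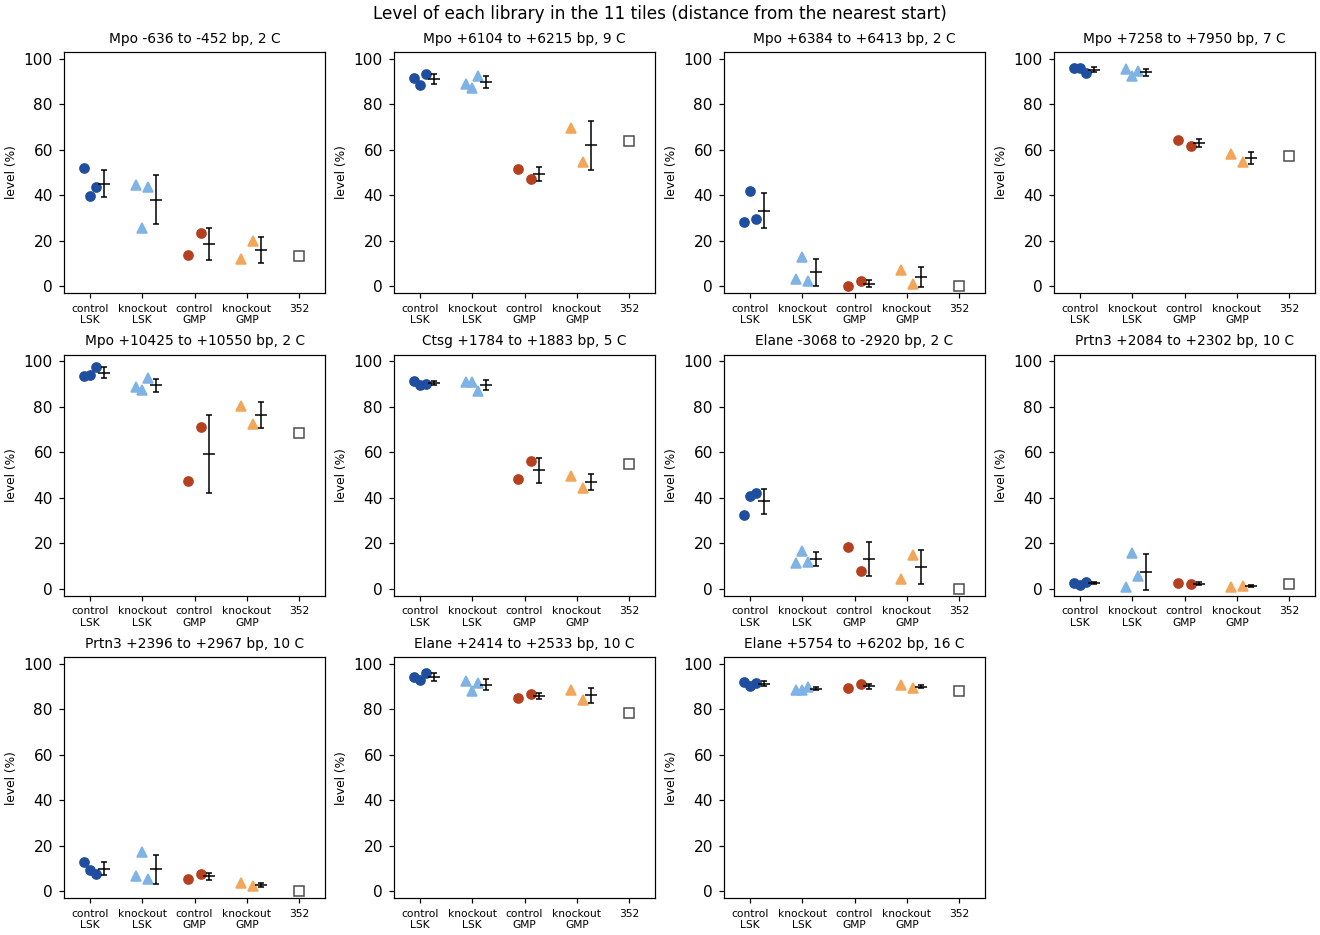
Methylation level of each library in the 7 tiles with at least 3 common C positions and the 4 tiles with 2, titled by distance from the nearest start; points are libraries, black bars are group means ± SD (n = 3 in LSK, n = 2 in GMP) and the open square is library 352. All 4 assigned GMP libraries lie below all 6 LSK libraries in the Mpo tiles at +6104 and +7258 and in the Ctsg tile, while in the 2-position tiles at Mpo +6384 and Elane -3068 the control LSK libraries alone are high.

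The question of the comparison is whether these losses differ without Dnmt3a. The difference of the differences, knockout minus control, was +14.3 points (SE 8.15) in the first Mpo tile, -5.35 points (SE 2.49) in the second and -4.26 points (SE 4.89) in the Ctsg tile. A positive value is a smaller loss in knockout cells. With 1 library left out these values ran from 6.68 (without 178) to 21.9 points (without 179), from -7.13 to -3.57 points and from -8.14 (without 346) to -0.38 points (without 349). On the logistic scale, their unadjusted p-values in the limma-moderated test of the product term were 0.0657, 0.919 and 0.628. Of the 7 tiles 0 passed after adjustment, against a background of 0.0% of all tiles in either direction, although 4361 of 100150 tiles had an unadjusted p under 0.05. The other tests of all tiles called few: 7 with limma on percent levels and 3 with a dispersion prior fitted on all tiles, none of them in the 4 genes. The Mpo window had the smallest unadjusted p of the 4 windows, 0.0117, with a difference of the differences of +10.6 points (SE 4.81) and an adjusted p of 1.0, and it ran from 6.03 points without 178 to 15.2 points without 179. These intervals are wide: with 2 GMP libraries per genotype, a smaller loss in knockout cells at the first Mpo tile was not detectable beyond the spread between libraries, which is not evidence that the loss was equal.

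Within GMP the genotypes were also compared directly. Knockout minus control GMP was +12.8 points (SE 7.90) in the first Mpo tile, where 8 of 9 positions had a higher mean in knockout cells, -6.50 points (SE 2.22) in the second, where 2 of 7 did, and -5.08 points (SE 4.66) in Ctsg. Without 178 the first of these was 5.15 points and without 179 it was 20.4 points, and the Ctsg value ran from -8.96 points without 346 to -1.20 points without 349. Of the 7 tiles 0 passed, against a background of 0.0589% lower and 0.00899% higher. The positions of the first tile share reads, and 6 of the 9 are strand pairs of 3 CpG sites, so their common direction is not 8 separate results. In LSK, knockout minus control in the same 3 tiles was -1.53, -1.16 and -0.83 points, and 0 of 7 tiles passed, against a background of 0.987% lower and 0.00399% higher. Over the whole Mpo window the 3 knockout LSK libraries, at 83.1%, 80.9% and 85.5%, all lay below the 3 control LSK libraries, at 89.8%, 88.2% and 88.5%. That difference of -5.67 points (SE 1.43) did not pass (limma-moderated adjusted p = 0.182).

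At single positions the 2 genotypes had no library in common. Their tests still shared 1 estimate of the spread at each position, taken from all 10 libraries. Of the 76 positions 13 passed as lower in control GMP than in control LSK, 10 in Mpo and 3 in Ctsg, against a background of 0.176% of 1293035 positions. In knockout cells 5 passed, 2 in Mpo and 3 in Ctsg, against a background of 0.151%, and these 5 were among the 13. None passed as higher in GMP, against 0.0199% and 0.0413%. A position that passed in control and not in knockout cells is not thereby shown to differ. Of the 76 positions 0 passed the test of the product term, against a background of 0.0041% lower and 0.000464% higher, and limma on percent levels passed none either, with a smallest adjusted p of 0.309 at 87799953. All GMP libraries lay below all LSK libraries of the same genotype at 41 positions in control cells, 34 in knockout cells and 27 in both. The share of all positions that did so was not counted, so these counts are a description only. A lower mean in GMP was found at 62 of the 76 positions in control and 57 in knockout cells. Over all positions, 38.8% and 37.1% had a lower mean in GMP. The GMP minus LSK differences of the 2 genotypes correlated across the 76 positions with a Pearson r of 0.766 and a Spearman rho of 0.678, given as a description because positions share fragments and libraries.

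**Figure D4:**
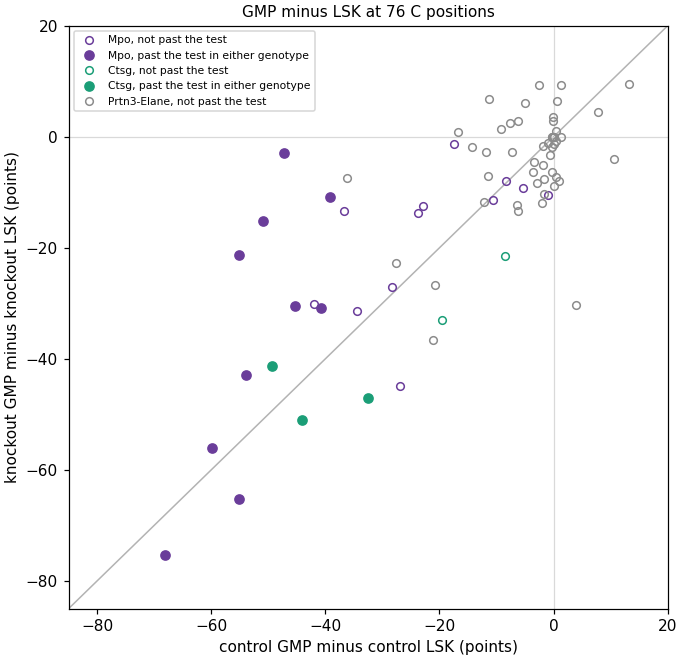
GMP minus LSK difference in methylation level (percentage points) at the 76 common C positions, control cells on the horizontal axis and knockout cells on the vertical axis; filled points passed the test in either genotype and the grey line marks equal differences. All 3 filled Ctsg points and 6 of the 10 filled Mpo points lie below -25 points on both axes.

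Some Mpo positions passed in control cells alone. At 87799932, 6148 bp after the start, levels were 97.7%, 98.2% and 97.2% in control LSK and 60% and 25% in control GMP, but 90.7%, 100% and 89.7% in knockout LSK and 83.7% and 60.6% in knockout GMP. Near the 3′ end of the gene, at 87804334, control LSK libraries read 91.7%, 96.1% and 96.3% and control GMP libraries 23% and 64.7%, while knockout LSK libraries read 89.7%, 79.4% and 90.8% and knockout GMP libraries 74.1% and 68.9%. The differences of the differences were +33.9 and +35.8 points, with unadjusted limma-moderated p-values of 0.0101 and 0.0177 that did not survive adjustment over all positions (adjusted p = 1.0 for both). At both positions the 2 control GMP libraries lie far apart from each other.

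A different pattern was found at 2 positions where control LSK cells were only partly methylated. Not every partly methylated position showed it. At 87793148, upstream of Mpo, means were 66.4% in control LSK and 53.7% in knockout LSK, against 24.4% in control GMP and 23.7% in knockout GMP. At 79882609 in Prtn3 they were 56.8% and 42.1%, against 35.9% and 15.4%. At 87800168 in Mpo, 6384 bp after the start, control LSK libraries read 46.2%, 59.5% and 35.9%. Knockout LSK libraries read 2.13%, 13% and 4.08%. Methylated reads were 0 of 39 and 0 of 73 in the control GMP libraries, which allows levels of up to 7.69% and 4.11% by counting error alone, and the knockout GMP libraries read 6.82% and 0 of 66 reads (up to 4.55%). The next common position upstream, at +6215, read 90.3% or more in every LSK library. The position at +6384 was thus low in knockout LSK cells as well as in GMP cells of both genotypes. The knockout minus control difference in LSK was -40.8 points (limma-moderated adjusted p = 0.0360). At 79883244, between Prtn3 and Elane, control LSK libraries averaged 61.9% and knockout LSK libraries 21.7%, a difference of -40.2 points (limma-moderated adjusted p = 0.00211), and GMP libraries averaged 25.8% in control and 14.3% in knockout cells. These 2 were the only positions of the 76 that passed in LSK, against a background of 0.33% lower and 0.00472% higher, and 0 of 76 passed in GMP, against 0.0041% lower and 0.00348% higher.

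Both positions lie in tiles with only 2 common positions, which were added to the analysis after the data were seen. With tiles of at least 2 positions, 6 of 11 tiles were lower in control GMP than in control LSK, against a background of 0.787%, and 3 in knockout cells, against 0.662%. The 3 additional ones in control cells were Mpo 87800001 (-32.2 points, limma-moderated adjusted p = 0.0148), Mpo 87804001 (-35.8 points, adjusted p = 0.00266) and the tile between Prtn3 and Elane (-25.2 points, adjusted p = 0.0377). In knockout cells these 3 tiles differed by -2.19, -12.9 and -3.52 points and did not pass. In LSK, 2 of 11 tiles were lower in knockout cells, against a background of 0.941%: Mpo 87800001 went from 33.2% ± 7.53 to 6.06% ± 6.02 and the tile between Prtn3 and Elane from 38.4% ± 5.30 to 13.1% ± 2.90 (SD, n = 3 and 3). Their limma-moderated adjusted p-values were 0.0354 and 0.00731. The differences of the differences in these 3 tiles were +30, +22.9 and +21.7 points (unadjusted p = 0.0509, 0.0106 and 0.0720, limma-moderated), and 0 of 11 passed after adjustment, against 0.0%. At Mpo 87804001 the value was 10.9 points without control GMP 346 and 34.9 points without 349.

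These 2-position tiles rest on few positions. Mean reads per position and library were 49.7 at Mpo 87800001, 88.85 at Mpo 87804001 and 116.2 between Prtn3 and Elane. At Mpo 87800001 the LSK difference stayed between -30.6 and -22.8 points with each library left out in turn. It no longer passed without any 1 of control LSK 1326, 1330 or 1331, knockout LSK 1327 or 1334, or control GMP 346 or 349 (limma-moderated adjusted p = 0.0519 to 0.220). Between Prtn3 and Elane it failed only without control LSK 1331 (-23.4 points, adjusted p = 0.0600). The control GMP minus LSK difference of the latter tile failed without control LSK 1330 or 1331, knockout LSK 1334, or control GMP 346 or 349 (adjusted p = 0.0533 to 0.511), that of Mpo 87800001 without 1330, 346 or 349 (adjusted p = 0.0888 to 0.200) and that of Mpo 87804001 without 346 (adjusted p = 0.0924). The 2 positions upstream of Mpo, at -636 and -452 bp from the start, went from 45.1% to 18.5% in control and from 38.0% to 16% in knockout cells and did not pass (adjusted p = 0.249 and 0.195). Without knockout LSK 1333 the knockout difference was -28.2 points and passed (limma-moderated adjusted p = 0.0291). All 4 GMP libraries there lay below all 6 LSK libraries.

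Genes known to act with the 4 enzymes were measured over windows of the same kind. Of 7 regulators, Cebpe, a C/EBP factor of terminal granulocyte development, was lower in GMP in both genotypes, from 85.6% to 56.1% in control and from 80.7% to 59.6% in knockout cells, against a background of 0.618% and 0.804% of windows. Gfi1, a repressor needed for neutrophil development, was higher in GMP in both, by 12.4 and 12.7 points, and lower in knockout than in control LSK, with a difference of -11.4 points, against backgrounds of 0.496%, 1.99% and 0.754% of windows. The other regulators on the list (Cebpa, Spi1, Runx1, Cbfb and Myb) did not pass, and the median of the 7 was -1.17 points in control and -0.77 points in knockout cells, beside 0.34 and 0.63 points over all windows. Of 11 genes for other primary granule cargo, processing and inhibitors, 8 were measured, and 1 was lower in GMP in both genotypes: Srgn, the proteoglycan core that packs granule proteins, with differences of -20.2 and -16.4 points, against the same background. Of the secondary and tertiary granule genes, whose expression starts later in the lineage, 9 of 15 were measured and 0 passed in either genotype, which is near the background. Of other peroxidases 3 of 4, and of neighbouring serine proteases 2 of 8, were measured, and 0 passed, likewise near the background. The product term passed for none of these genes, against 0.0% of all windows. The window of Cfd, a protease on the list, overlaps the Elane window, and that of the peroxidase Lpo overlaps the 3′ part of Mpo. Their values therefore include positions already reported above.

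The windows most like each gene were found by Pearson r of the levels over the 10 libraries, among 9274 windows with a range of at least 10 points. For Mpo they were Lncbate6 (r = 0.986), Gm13771 (0.985) and Trpm2 (0.979). For Ctsg they were Gm30716 (r = 0.994), Gm28231 (0.992) and Gm9833 (0.990). Elane was most like Sh3pxd2b, Gm8495 and Slfn2 (r = 0.961, 0.961 and 0.959), and Prtn3 most like Slain2, Il21r and Gm51986 (r = 0.926, 0.924 and 0.907). These are the highest of many values over 10 libraries and are given as a description. All 3 windows most like Ctsg had lower group means in GMP than in LSK in both genotypes, which follows from choosing them by r. Gm28231 had 26.4% against 87.1% in control and 26.7% against 87.5% in knockout cells.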

How the data were processed

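MspI fragments of genomic DNA were bisulfite-treated and sequenced as single-end reads, per the labels' protocols. Bismark is the tool, and mm10 and GRCm38 the builds, in the submitters' processing notes; a version is not given in the sources used here. Per the file headers, each deposited table gives the coverage of every C position as a count of reads and, as percent of that coverage, those read as C or as T. All listed positions had at least 10 reads, and an unlisted position is not a level of 0. Multiplying coverage by the deposited percent gave the reads of each kind, all of them whole within rounding.

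Levels pool the reads of the positions common to the 10 assigned libraries. Differences are between group means of libraries. A quasi-binomial logistic model over 4 groups (6 residual degrees of freedom) was fitted to all 100150 tiles, 27998 gene windows or 1293035 positions, with dispersions moderated by limma 3.58.1 in R 4.3.3, F tests, and p-values adjusted by Benjamini-Hochberg across all features of a kind. A call needed an adjusted p under 0.05 and a difference of 20 points for tiles, 10 for windows or 25 for positions. The change of the GMP minus LSK difference was tested as the product term of genotype and cell type on the logistic scale. Tests were checked on simulated data.

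The 4 genes and all gene lists were chosen with earlier results of these data known. By rule, every tile with at least 3 common positions was reported, in full where called or nearest a start, with single positions inside them; the 2-position tiles and their positions were named after their values were seen. Whether libraries came from separate animals is not stated in the labels, so p-values measure only the spread among them. Reads carry no molecular identifiers, so binomial intervals (exact, 95%) cover counting error only. Alternatives were another dispersion prior, a fit on the libraries compared, limma on percent levels, a coverage of 20, other tiles and windows, and each library left out. Gene positions and promoter sequences are from RefSeq tables of GRCm38.p6.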

Additional observations from a re-analysis of the deposited data

Results flagged for a closer look

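Library 352 is the GMP library with conflicting genotype labels that entered no comparison. It read above both control GMP libraries over the whole Mpo window and in the first Mpo tile. Its level in the Mpo window was 53.0% (557 of 1050 reads, exact 95% binomial interval 50.0 to 56.1%), against a highest control GMP level of 47.5%. In the Mpo tile from 87799001 it was 63.9% (189 of 296 reads, exact 95% interval 58.1 to 69.3%), against a highest control GMP level of 51.4%, and lay between the 2 knockout GMP libraries. In the other Mpo tile, at 57.2%, and in Ctsg, at 55.0%, it did not exceed the higher control GMP library. Nor did it in the 2-position Mpo tiles from 87793001 (13.3%), 87800001 (0 of 112 reads) and 87804001 (68.6%). Its mean level over all common positions, 31.5%, lay below that of every assigned library. Library 352 listed 0 of the 5 positions of the Dnmt3a segment that all control libraries listed. It also lacked Dnmt3a positions outside that segment. Of the 356 positions of the gene listed in all control libraries it listed 330. The knockout LSK libraries listed 347 to 351 of them and the knockout GMP libraries 351 and 356. What this means for its genotype was not tested.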

How the results depend on the processing

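No paired analysis was possible because the groups share no replicate numbers. The 3 tiles called in control cells stayed 3 (range 3 to 3) with each library left out. The 3 called in knockout cells ranged from 2 to 3, and counts in the other 3 comparisons stayed at 0. With tiles of at least 2 C positions, and equally with limma on percent levels in such tiles, 6 member tiles passed in control cells and 2 in knockout against control LSK. Fitted alternatives on the 7 tiles kept these counts within 1.5 times. No window of Ctsg could be fitted at a coverage of 20, for lack of positions.

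The Elane window's difference of the differences changed sign, without passing, with an unweighted mean over positions (0.16 points) and with 2 kb flanks (2.27 points). In the 7 tiles and 4 windows, leaving out single libraries turned only differences that had not passed: knockout minus control LSK at the Elane window (-3.25 to 0.82 points), the Ctsg window and tile (-1.55 to 0.52), the Prtn3 window (-2.67 to 3.49) and the tile from 79882001 (-3.98 to 1.91), control GMP minus LSK at the tile from 79881001 (-0.57 to 0.17), knockout minus control GMP at the tiles from 79888001 (-1.91 to 2.70) and 79892001 (-1.02 to 0.76), and the difference of the differences at the Prtn3 window (-5.60 to 0.56) and the tile from 79882001 (-5.55 to 0.34). In the 2-position tiles it also turned differences that had not passed: knockout GMP minus LSK at 87800001 (-5.30 to 1.27) and 79883001 (-8.69 to 1.64), knockout minus control GMP at 79883001 (-8.80 to 1.67), 87793001 (-7.57 to 2.50) and 87800001 (-0.27 to 5.95), and the difference of the differences at 87793001 (-1.63 to 9.56). Without library 179 the knockout losses of the first Mpo tile and of the Mpo and Ctsg windows no longer passed. The cause was not tested.

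Over all tiles, calls moved more: leaving out 1 library gave 446 to 1075 tiles in control cells (886 with all), 375 to 1415 in knockout cells (876), 763 to 1472 in LSK (992), 0 to 154 in GMP (68) and 0 to 14 for the product term (0). Tiles of at least 5 positions gave 390, 406, 530 and 15 in the first 4 of these, limma on percent levels 572 in knockout cells, 514 in LSK and 7 for the product term, and fits on the compared libraries alone 518 in knockout cells and 330 in GMP. With 2 libraries per GMP group, a difference of the differences such as that of the first Mpo tile has an SE of 8.15 points, which limits what could be detected.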

Other observations

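Mpo also had 4 C positions that were listed in all 4 assigned GMP libraries and in no LSK library, so no comparison with LSK was possible there. Their pooled levels were 24.2% and 44.2% in the control GMP libraries, 52.0% and 37.4% in the knockout GMP libraries and 46.0% in library 352. The reverse case, a position listed in all 6 LSK libraries and in no GMP library, did not occur in the 4 windows. The share of such positions over the genome was not counted. Listing needs at least 10 reads, and depth differed between the cell types, so these counts describe the libraries and not Mpo alone.

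The lowest levels of library 352 were in the Prtn3 and Elane windows. It read 1.39% over the Prtn3 window, where the other GMP libraries read 3.65 to 6.38%, and 0 of 214 reads in the tile between Prtn3 and Elane (up to 1.40% by counting error), where they read 4.41 to 18.4%. Among stem cell genes measured beside the granule genes, Hlf, a transcription factor of stem cells, was lower in knockout than in control LSK (17.2% and 32.0%, a difference of -14.8 points, limma-moderated adjusted p = 0.00303).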
